A study of Mus musculus with 12 samples.

Results

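The orphan and adhesion G protein-coupled receptors were taken from the count table of a RiboTag experiment in mouse small-intestinal muscularis, the muscle coat that holds the myenteric plexus. A gene was included if its name began with Gpr or with Adgr and a family letter, each followed by a digit, or if it was Gpbar1. Gpr37, Gpr37l1, Gpr20, Adgrd1 and Adgre1 were not counted, which left 45 of the 12975 genes in the table. Of these, 17 were adhesion receptors, 7 were receptors with a described ligand and 13 were orphan receptors of the plasma membrane. The other 8 carry a Gpr name and were grouped as proteins of inner membranes, such as those of Golgi or lysosomes. Among them, Gpr137b-ps is annotated as a pseudogene.

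G protein-coupled receptors cross the membrane with a bundle of helices and pass a signal from outside the cell to G proteins, which among other effects raise or lower cAMP. Adhesion receptors are a separate class: a long extracellular part binds matrix proteins or proteins on neighbouring cells, and many of these receptors cut themselves next to the membrane so that a tethered peptide can switch them on. Orphan receptors have no accepted ligand, and some of them signal without one. In glial cells, adhesion receptors are best known from Schwann cells and oligodendrocyte precursors, where they govern myelination.

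All animals were PLPCreERT2 Rpl22HA mice, in which tamoxifen turns on, in the cells that make the Cre (enteric glia in this tissue), a hemagglutinin (HA) tag on the ribosomal protein Rpl22. Every animal carried both alleles and had received 2 intraperitoneal injections of 100 µl tamoxifen at 15 mg/ml, the study's methods giving an age of 10 to 12 weeks at tamoxifen and 3 to 4 weeks until the tissue was taken. The muscularis was collected from 3 naive mice (T0) and from 3 mice at 3 h after intestinal manipulation (T3), a surgical handling of the bowel that inflames the muscle coat. The lysate of each mouse was split, one share was pulled down with anti-HA and the other with control IgG, and polyadenylated RNA was counted by unique molecular identifiers (UMIs) near the 3′ end of each gene, so that 4 groups of 3 libraries came from 6 animals. There were no mice without Cre, and IgG served as the background of the pull-down; unhandled mice served as the T0 group, so the surgery, its anaesthesia and the 3 h that followed cannot be told apart.

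Library totals ran from 1789710 to 2870591 counts in HA T0, 388214 to 1289833 in IgG T0, 1221788 to 1495439 in HA T3 and 88136 to 248522 in IgG T3, and 21 to 31 of the 45 genes had a count in the IgG T3 libraries against 44 in each HA T0 library. The summed level of 9 glial markers was 3668 to 4528 CPM (counts scaled to a library total of 1000000) in HA T0 against 178 to 242 CPM in IgG T0, and 4457 to 5146 CPM in HA T3 against 221 to 987 CPM in IgG T3. Markers of interstitial cells of Cajal (Kit, Ano1, Etv1 and Thbs4) were also higher in the HA libraries, with sums of 2741 to 3485 CPM against 254 to 356 CPM at T0 and 1216 to 1588 CPM against 189 to 772 CPM at T3. Summed macrophage markers were 262 to 539 CPM in HA T0 and 485 to 811 CPM in IgG T0, and smooth muscle markers 14843 to 22815 CPM and 44115 to 61491 CPM. The part of the interstitial cell transcripts in the receptor results below was not tested. In bulk RNA of this kind, fewer cells of a type and less RNA per cell cannot be told apart. The p-values below measure the spread between the 3 libraries of each group. Unless a block is named, those for HA against IgG and for the interaction do not use the pairing of libraries from the same animal.

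The 45 genes together took 2882 ± 105 CPM (SD, n = 3) of the HA libraries at T0 and 881 ± 35.6 CPM of the IgG libraries. At T3 the sums were 1943 ± 131 CPM in HA and 1022 ± 209 CPM in IgG. The ranges of HA and IgG did not overlap at either time, and those of HA T0 (2762 to 2959 CPM) and HA T3 (1852 to 2093 CPM) were apart as well. Because each gene was counted in a fixed window at its 3′ end, these levels are not scaled by gene length. Of the receptor counts in HA T0, Adgra3 held a median of 24.9% and Gpbar1 20.6% over the 3 libraries. By T3 Adgra3 held 22.5% of the HA receptor counts, Gpbar1 9.62% and Adgrg1 13.2%, the last up from 5.27%. Grouped by role, adhesion receptors made up 54.7 to 58.5% of the receptor counts in HA T0 and 59.0 to 64.2% in HA T3. Orphan receptors went from 6.27 to 6.48% at T0 to 11.1 to 12.3% at T3, and receptors with a described ligand, mostly Gpbar1, from 19.4 to 22.7% to 11.1 to 11.6%. These are shares of a total that was lower at T3. In level, the orphan receptors summed to 173 to 191 CPM in HA T0 and to 206 to 232 CPM in HA T3.

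**Figure D1:**
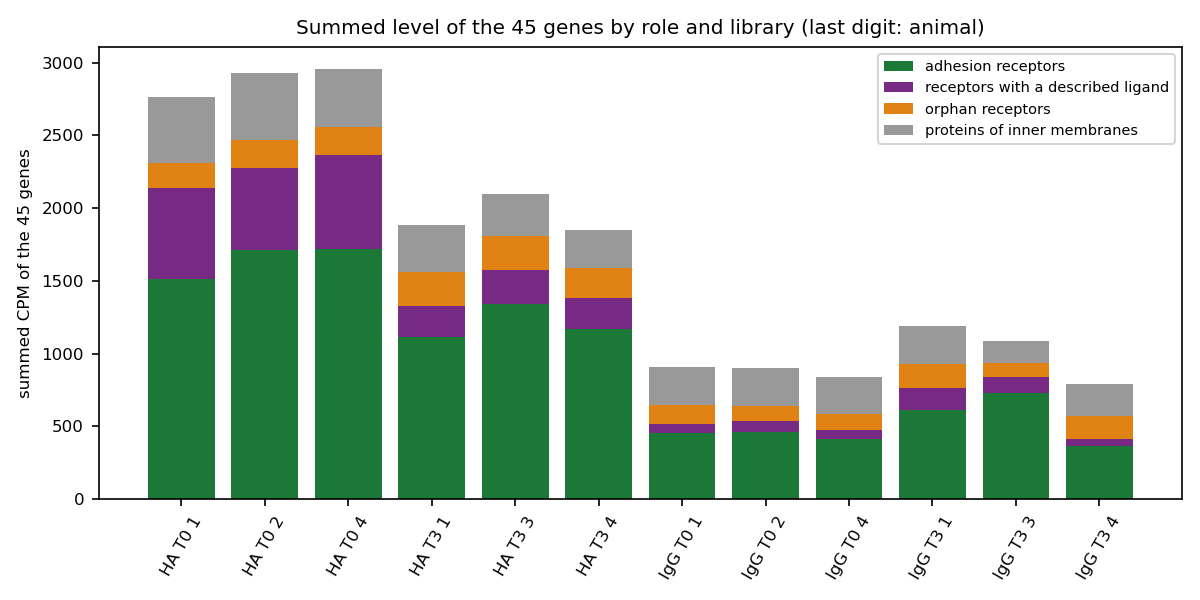
Summed CPM of the 45 genes in each of the 12 libraries, stacked by role. The HA T0 bars reach 2762 to 2959 CPM and the HA T3 bars 1852 to 2093 CPM, and the purple segment, which is mostly Gpbar1, goes from 568 to 648 CPM to 216 to 231 CPM.

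The first comparison asked which of these transcripts the glial pull-down enriched over IgG in naive muscularis. Adhesion receptors were prominent, and 7 of the 9 tested were higher in HA, among them Adgra3, Adgrg1, Adgre5, Adgra2, Adgrb1 and Adgrb2, by factors of 3.68 to 8.16. Among the other genes Gpbar1 was 20.1-fold higher, Gpr162 2.53-fold and Gpr146 1.96-fold. Of the 8 genes grouped as proteins of inner membranes, 4 were higher. A single receptor, Gpr85, was lower in HA. In all, 14 of the 24 receptors tested were higher and 1 was lower at an adjusted p under 0.05 in edgeR's quasi-likelihood test, where 30.3% of the 9823 genes tested were called, 16% higher and 14.4% lower. The median log2 difference was 1.31 over the receptors tested and -0.02 over all genes. The HA and IgG libraries did not overlap in CPM for 17 receptors in the higher direction and 1 in the lower, against 44.8% of all genes in either direction.

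Adgra3 (GPR125), an orphan adhesion receptor tied to planar cell polarity, had 582, 729 and 749 CPM in the HA libraries of naive animals 1, 2 and 4, and 79.9, 122 and 100.0 CPM in their IgG libraries. Every HA library was above every IgG library, and the HA level was 7.29, 5.99 and 7.49 times the IgG level of the same animal. The log2 difference was 2.73 (SE 0.21, adjusted p = 6.09e-07), the second smallest p among the receptors after Gpbar1. Adgrg1 (GPR56), which binds collagen III and transglutaminase 2 and keeps oligodendrocyte precursors dividing, had 146, 165 and 129 CPM in HA and 10.3, 24.0 and 17.1 CPM in IgG. The groups were well apart, with ratios of 14.1, 6.87 and 7.58 within animals and a log2 difference of 3.03 (SE 0.28, adjusted p = 3.04e-06). Adgre5 (CD97), a receptor for CD55 and Thy1 that is also made by leukocytes and smooth muscle, had 351, 277 and 283 CPM in HA and 82.4, 92.6 and 71.3 CPM in IgG. All 3 animals had more in HA, by 4.26, 2.99 and 3.97 times, and the log2 difference was 1.88 (SE 0.21, adjusted p = 1.93e-05).

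Adgra2 (GPR124), a co-receptor for Wnt7 proteins best known from brain endothelium, had 99.8, 121 and 106 CPM in HA and 25.8, 22.3 and 31.0 CPM in IgG. The libraries did not overlap, and the log2 difference was 1.98 (SE 0.25, adjusted p = 4.92e-05). The sum of 6 endothelial markers was lower in HA (17.7 to 31.8 CPM) than in IgG (49.7 to 68.2 CPM). Only 2 of these markers had enough counts for a test, and the cells behind the Adgra2 counts were not tested. Adgrb1 (BAI1), a receptor for phosphatidylserine on dying cells, had 54.9, 70.4 and 61.3 CPM in HA and 23.2, 20.6 and 7.75 CPM in IgG. Its relative Adgrb2 (BAI2) had 62.6, 94.4 and 71.1 CPM in HA and 12.9, 30.9 and 13.2 CPM in IgG. For both, the lowest HA library was above the highest IgG library, and the log2 differences were nearly equal, 2.01 (SE 0.36, adjusted p = 9.09e-04) for Adgrb1 and 2.01 (SE 0.34, adjusted p = 5.99e-04) for Adgrb2. Adgrg6 (GPR126), which starts myelination in Schwann cells and binds collagen IV, laminin and the prion protein, was less even. It had 60.3, 86.0 and 87.4 CPM in HA and 59.2, 12.0 and 22.5 CPM in IgG, so that animal 1 had nearly the same level in both (ratio 1.02) and animals 2 and 4 ratios of 7.17 and 3.89. Its log2 difference was 1.42 (SE 0.42, adjusted p = 0.0246), and the adjusted p was 0.0759 and 0.0720 without the HA libraries of animals 2 and 4, and 0.0537 and 0.117 without their IgG libraries. Without the IgG library of animal 1 the difference was 2.06.

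The latrophilins Adgrl1 and Adgrl2, which bind teneurins and FLRT proteins on neighbouring cells, did not pass the threshold. Adgrl1 had 103, 113 and 171 CPM in HA and 103, 77.1 and 96.9 CPM in IgG, and Adgrl2 43.0 to 48.1 CPM in HA and 21.7 to 41.2 CPM in IgG. The Adgrl2 libraries did not overlap and those of Adgrl1 did, and the log2 differences were 0.45 (95% interval -0.01 to 0.90) for Adgrl1 and 0.44 (-0.14 to 1.01) for Adgrl2. Adgrl1 shares its window with Gm10644 on the opposite strand.

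Gpbar1, the membrane receptor for bile acids, which couples to Gs and raises cAMP, had the largest difference of the receptors. It had 590, 517 and 608 CPM in HA and 28.3, 30.9 and 25.6 CPM in IgG, and 20.8, 16.8 and 23.8 times the IgG level within animals. Gpr4, a proton-sensing receptor of blood vessels, went the other way without passing the threshold, with 23.4 to 30.2 CPM in HA and 27.1 to 36.0 CPM in IgG (log2 difference -0.31).

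Among the orphan receptors, Gpr162 had 80.6, 77.7 and 74.2 CPM in HA and 20.6, 34.3 and 32.6 CPM in IgG, which was a log2 difference of 1.34 (SE 0.26, adjusted p = 0.00143). Gpr146, known for its part in liver cholesterol metabolism, had 31.9, 38.6 and 35.2 CPM in HA and 15.5, 22.3 and 15.5 CPM in IgG (log2 difference 0.97, SE 0.30, adjusted p = 0.0236). In both genes every HA library lay above every IgG library, but the adjusted p of Gpr146 was 0.0533 to 0.102 without any 1 of the HA libraries or the IgG library of animal 4. Gpr85, a conserved receptor of neurons, had 15.4, 20.7 and 18.8 CPM in HA and 36.1, 34.3 and 28.7 CPM in IgG, a log2 difference of -0.86 (SE 0.29, adjusted p = 0.0388). Each Gpr85 library was lower in HA, and the summed level of 10 neuron markers was 927 to 1098 CPM in HA and 1207 to 2818 CPM in IgG. Its call rested on a narrow margin, with an adjusted p of 0.0516 when libraries were scaled by their totals and of 0.0608 to 0.132 when 1 library was left out. Gpr19 had 16.5, 21.2 and 30.7 CPM in HA and 18.0, 0 and 7.75 CPM in IgG, so that the groups overlapped. Its log2 difference of 1.53 had an adjusted p of 0.0768, and of 0.0359 when animals were blocked in the fit. Gpr153 had 8.83 to 12.9 CPM in HA and 2.58 to 7.75 CPM in IgG and was not called.

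The genes grouped as proteins of inner membranes were all tested at T0, and 4 of 8 were higher in HA. Gpr89, an anion channel that sets the pH of the Golgi, had 39.5, 36.9 and 23.7 CPM in HA and 10.3, 13.7 and 14.0 CPM in IgG (log2 difference 1.32, adjusted p = 0.0112), and its window holds Pdzk1 on the opposite strand, which leaves its counts uncertain. Gpr155, a cholesterol sensor of lysosomes, had 19.6 to 27.9 CPM and 3.43 to 15.5 CPM (1.77, adjusted p = 0.0132; with IgG animal 1 left out, 2.42). Gpr137, of a lysosomal family that acts on mTORC1, had 96.1 to 120 CPM and 36.0 to 69.6 CPM (0.92, adjusted p = 0.0140), and its relative Gpr137b 13.4 to 23.7 CPM and 3.43 to 8.53 CPM (1.31, adjusted p = 0.0414). The HA and IgG libraries of these 4 genes did not overlap, but some calls were lost without 1 library. The adjusted p of Gpr89 was 0.0570 without the HA library of animal 1, that of Gpr155 was 0.0504 and 0.0867 without the HA library of animal 2 and the IgG library of animal 4, and that of Gpr137b was 0.0519 to 0.152 without any 1 library other than the IgG library of animal 1. Counts of Gpr137b and of the pseudogene Gpr137b-ps, which had 11.2 to 18.5 CPM in HA and 1.71 to 15.5 CPM in IgG, are uncertain because such near-identical copies can share reads. Gpr108, a Golgi protein, had 114 to 178 CPM in HA and 74.7 to 125 CPM in IgG (0.65, adjusted p = 0.0623, and 0.0158 once animals were blocked). Gpr107 and Gpr180 had log2 differences of 0.21 and 0.19 and did not pass.

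**Figure D2:**
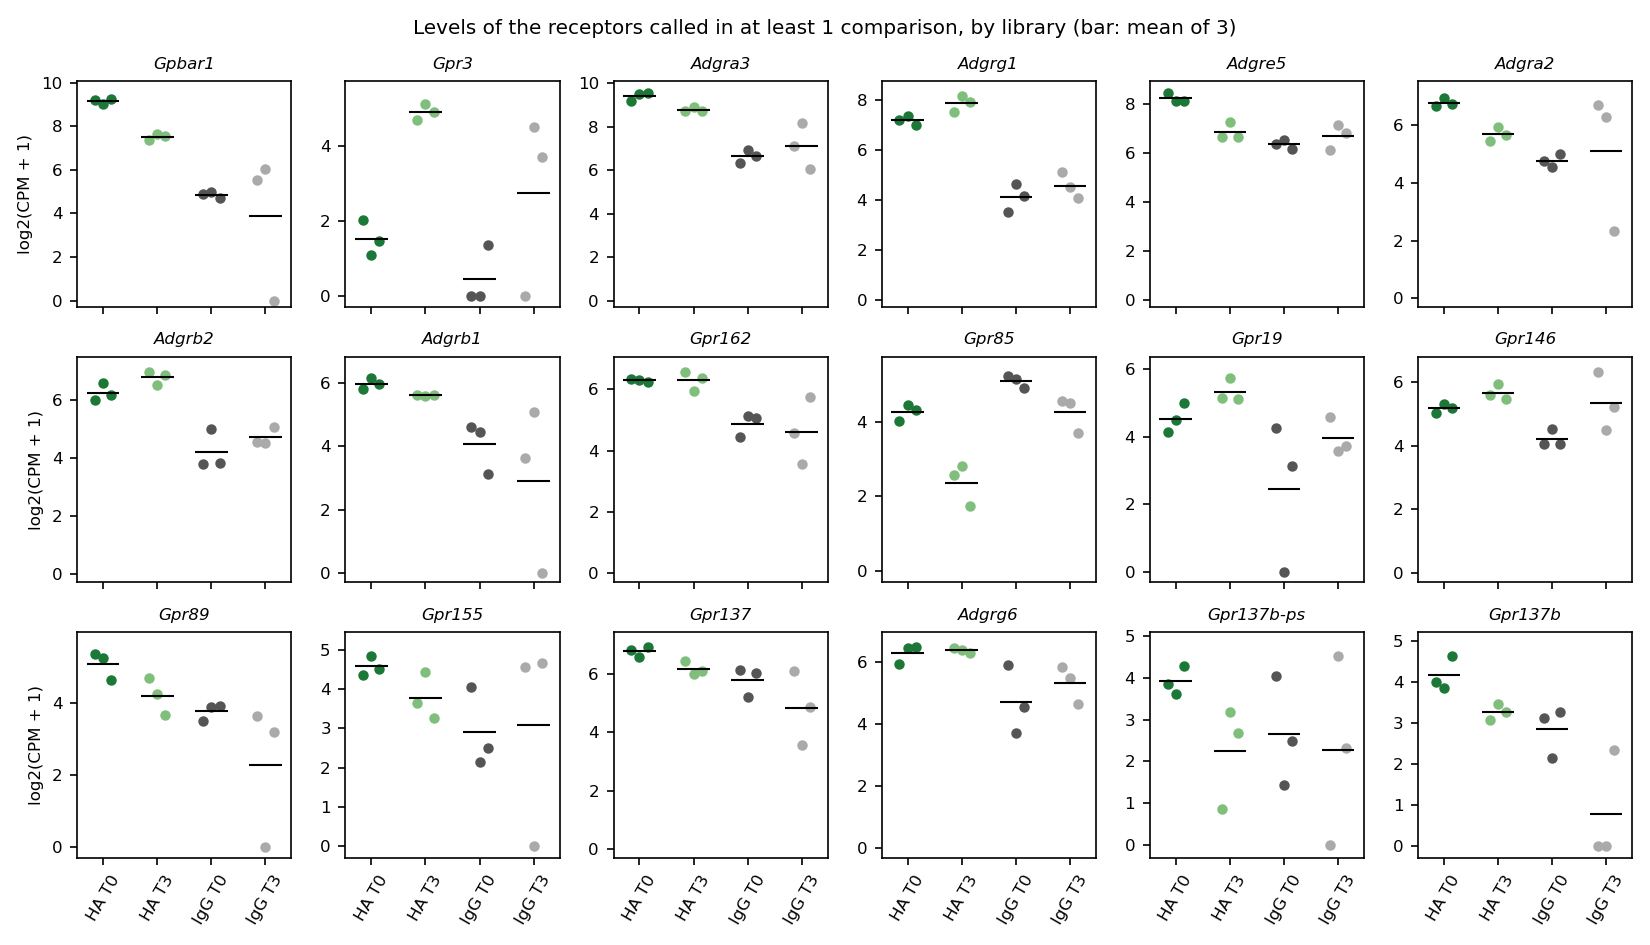
Level of each of the 18 receptors called in at least 1 comparison, as log2(CPM + 1), by group, with 1 point per library and a bar at the mean of the 3 log2 values. The HA points of Gpbar1, Adgra3 and Adgrg1 sit above those of IgG at both times, Gpr3 leaves the floor in HA T3, and the IgG T3 points of many receptors are widely scattered.

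The same comparison at T3 was made against much shallower IgG libraries, and 19 receptors could be tested. Of these 6 were higher in HA and none was lower, where 21.9% of the 7200 genes tested were called, 11.8% higher and 10.2% lower (DESeq2 also called 6 higher and 0 lower, and 10 receptors had an unadjusted p under 0.05 in edgeR's test). The median log2 difference was 1.20 over the receptors and 0.02 over all genes, and 9 receptors had no overlap between HA and IgG in the higher direction, against 35.8% of all genes in either direction. The 6 receptors were Adgrg1, Gpbar1, Adgrb2, Adgra3, Adgrb1 and Adgrg6, each of which had also been higher at T0.

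Adgrg1 had the smallest p at T3, with 186, 287 and 245 CPM in the HA libraries of animals 1, 3 and 4 and 34.0, 21.7 and 16.1 CPM in IgG. All animals were higher in HA, by 5.46, 13.2 and 15.2 times, and the log2 difference was 3.55 (SE 0.42, adjusted p = 1.71e-05). Gpbar1 had 164, 201 and 188 CPM in HA and 45.4, 65.2 and 0 CPM in IgG, with ratios of 3.61 and 3.09 in animals 1 and 3. The log2 difference was 2.95 (SE 0.57, adjusted p = 0.00133), and the library with no Gpbar1 count held 248522 counts, in which 3 counts would be 12.1 CPM. Without that IgG library the difference was 2.00 (adjusted p = 0.00321), and without that of animal 3 it was 4.02. Adgrb2 had 125, 90.3 and 114 CPM in HA and 22.7, 21.7 and 32.2 CPM in IgG (2.06, SE 0.41, adjusted p = 0.00153). Adgra3 had 418, 471 and 418 CPM in HA and 136, 283 and 64.4 CPM in IgG (1.69, SE 0.37, adjusted p = 0.00284), and the difference was 2.46 without the IgG library of animal 3. In each of these 4 receptors the groups were apart.

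Adgrb1 had 48.3, 46.8 and 48.3 CPM in HA and 11.3, 32.6 and 0 CPM in IgG (2.36, SE 0.70, adjusted p = 0.0205), and Adgrg6 had 85.9, 82.9 and 77.9 CPM in HA and 56.7, 43.5 and 24.1 CPM in IgG (1.26, SE 0.41, adjusted p = 0.0310). Both calls were lost when any 1 HA library was left out (adjusted p 0.0537 to 0.0883) and when the IgG library of animal 4 was left out (0.208 for each), and the Adgrb1 difference was 1.37 without that library and 4.07 without the IgG library of animal 3. Adgre5 and Adgra2, clearly higher in HA at T0, were not called at T3. Adgre5 had 99.9, 152 and 100.4 CPM in HA and 68.1, 141 and 113 CPM in IgG, with ratios of 1.47, 1.08 and 0.89 within animals (log2 difference 0.20, adjusted p = 0.713). Adgra2 had 42.6, 59.5 and 49.8 CPM in HA and 102, 76.1 and 4.02 CPM in IgG (0.28, adjusted p = 0.781), so that 2 IgG libraries lay above HA and 1 far below. Gpr162, Gpr19, Gpr137 and Gpr3 had log2 differences of 1.20, 1.57, 1.20 and 1.38 without passing the threshold, and Gpr162 passed once animals were blocked (adjusted p = 0.0400).

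**Figure D3:**
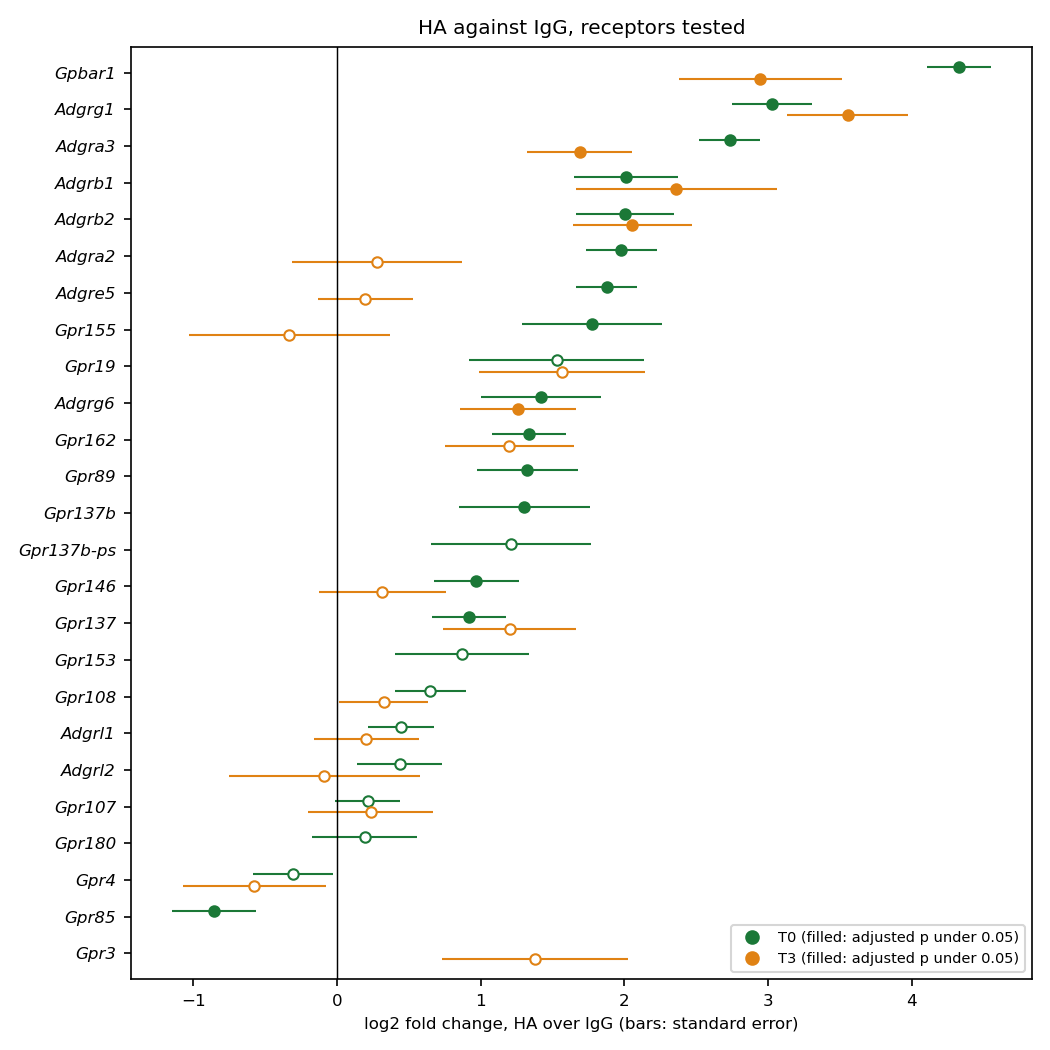
Log2 difference between HA and IgG for each receptor tested, at T0 (green) and T3 (orange), with bars of 1 standard error and filled points for an adjusted p under 0.05. Gpbar1, Adgrg1, Adgra3, Adgrb1 and Adgrb2 stand to the right at both times, while Adgre5 and Adgra2 are near 2 at T0 and near 0 at T3.

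The next comparison followed the receptors in the HA pull-down from naive tissue to 3 h after manipulation. Orphan receptors were 3 of the 5 that rose: Gpr3 was 16.5-fold higher at T3, Gpr19 2.11-fold and Gpr146 1.73-fold. The adhesion receptors split, with Adgrg1 1.97-fold and Adgrb2 1.74-fold higher, and Adgre5 2.15-fold and Adgra2 1.77-fold lower. Gpbar1 fell 2.58-fold, Gpr85 3.34-fold and the pseudogene Gpr137b-ps 2.42-fold. Of the 25 receptors tested, 5 rose and 5 fell, while 33.8% of the 9441 genes tested were called, 18.7% up and 15.1% down. The median log2 change was -0.33 over the receptors and -0.02 over all genes. This split depends on how libraries are scaled: with total counts in place of edgeR's TMM factors the median gene moved by -0.28, and 4 receptors rose and 12 fell, while of all called genes 31.4% rose in place of 55.4%. None of the 10 called receptors changed direction under that scaling, but the rise of Gpr146 then had an adjusted p of 0.0697. CPM values are per total counts, and on that scale 4 receptors in the higher and 12 in the lower direction had no overlap between T3 and T0, against 50.8% of all genes.

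Gpr3, an orphan receptor that couples to Gs and raises cAMP without a known ligand, was almost absent from naive HA libraries, with 8, 2 and 5 counts, or 3.07, 1.12 and 1.74 CPM. At T3 the HA libraries held 30, 50 and 37 counts, or 24.6, 33.4 and 28.8 CPM. Every T3 library was far above every T0 library, and the log2 change was 4.04 (SE 0.38, adjusted p = 6.37e-08). The ratio of the pooled counts was 14.2 (95% interval 8.24 to 26.1, for counting error only). The IgG libraries held 0, 0 and 2 Gpr3 counts at T0 and 0, 2 and 3 counts at T3, a pooled ratio of 13.2 (95% interval 2.16 to 138), too few for the gene to be tested there. At T3 the pooled HA level was 2.51 times that of IgG (95% interval 1.04 to 7.86). Gpr3 lies at chr4:133209340-133212536 on the minus strand of mm10, with no other annotated gene in its counting window.

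Gpr19 had 16.5, 21.2 and 30.7 CPM in HA at T0 and 34.4, 51.5 and 33.5 CPM at T3 (log2 change 1.08, SE 0.27, adjusted p = 0.00397). Gpr146 had 31.9, 38.6 and 35.2 CPM and then 47.5, 60.2 and 43.6 CPM (0.79, SE 0.22, adjusted p = 0.00856). For both orphans every T3 library exceeded every T0 library. Gpr146 shares its counting window with a gene on the opposite strand, 3110082I17Rik, and the sources used here do not say whether strand was used in counting, so its counts are uncertain.

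Adgrg1 rose from 146, 165 and 129 CPM to 186, 287 and 245 CPM, with no overlap (0.98, SE 0.20, adjusted p = 7.25e-04). Adgrb2 rose from 62.6, 94.4 and 71.1 CPM to 125, 90.3 and 114 CPM, with 1 T3 library inside the T0 range (0.80, SE 0.20, adjusted p = 0.00402). Adgre5 fell from 351, 277 and 283 CPM to 99.9, 152 and 100.4 CPM (-1.10, SE 0.20, adjusted p = 3.03e-04), and Adgra2 from 99.8, 121 and 106 CPM to 42.6, 59.5 and 49.8 CPM (-0.83, SE 0.20, adjusted p = 0.00301). Both were apart between the times, but Adgra2 was not called when all 12 libraries shared one fit (adjusted p = 0.0755). The windows of Adgre5 and Adgra2 also hold transcripts of Ddx39 and Brf2 on the opposite strand, and that of Adgre5 the microRNA gene Mir1668 on its own strand, which leaves their counts uncertain. Adgra3, the most abundant receptor, had 582 to 749 CPM at T0 and 418 to 471 CPM at T3 without passing the threshold (-0.39, adjusted p = 0.0776), and with total counts as scaling it passed (-0.66, adjusted p = 0.00298). Adgrb1 and Adgrg6 had log2 changes of -0.11 and 0.35 and were not called.

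Gpbar1 went from 590, 517 and 608 CPM to 164, 201 and 188 CPM, with the highest T3 library well below the lowest T0 library (-1.37, SE 0.17, adjusted p = 3.77e-06). Gpr85 went from 15.4, 20.7 and 18.8 CPM to 4.91, 6.02 and 2.34 CPM (-1.74, SE 0.38, adjusted p = 0.00160). Gpr137b-ps went from 13.4, 11.2 and 18.5 CPM to 0.82, 8.02 and 5.45 CPM (-1.28, SE 0.46, adjusted p = 0.0370), a call that was lost without the library of animal 1 or 4 at either time (adjusted p 0.0593 to 0.172), and its change was -1.89 without the T3 library of animal 3. Over the same time the summed interstitial cell markers went from 2741 to 3485 CPM to 1216 to 1588 CPM in HA, the macrophage markers from 262 to 539 CPM to 142 to 239 CPM. The fibroblast markers went from 675 to 939 CPM to 191 to 352 CPM, the mesothelium markers from 165 to 229 CPM to 25.7 to 34.1 CPM, the epithelium markers from 59.9 to 268 CPM to 24.6 to 62.9 CPM, and the neutrophil and monocyte markers from 1.39 to 5.59 CPM to 18.1 to 116 CPM. The 9 glial markers went from 3668 to 4528 CPM to 4457 to 5146 CPM, with Gfap alone at a mean of 118 and then 1715 CPM. Without Gfap, a sum chosen after seeing the data, the other 8 went from 3572 to 4398 CPM to 2780 to 3474 CPM and did not overlap. The smooth muscle markers went from 14843 to 22815 CPM to 12177 to 14549 CPM. The neuron markers, set beside Gpr85 above, went from 927 to 1098 CPM to 1032 to 1759 CPM, with overlap. The endothelium markers, set beside Adgra2 above, went from 17.7 to 31.8 CPM to 32.74 to 35.04 CPM. In HA, 3 of 9 neuron markers and 1 of 2 endothelium markers tested were called higher at T3, and none lower. For the neuron markers that was 33.3% of those tested, about the 33.8% called among all genes. The part of these shifts in the falls of Gpbar1, Adgre5, Adgra2 and Gpr85 was not tested. The remaining proteins of inner membranes all had negative log2 changes, from -0.06 for Gpr108 down, and none of those 7 passed. With total counts as scaling Gpr107, Gpr137, Gpr137b, Gpr180 and Gpr89 passed as lower, while Gpr108 and Gpr155 did not.

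**Figure D4:**
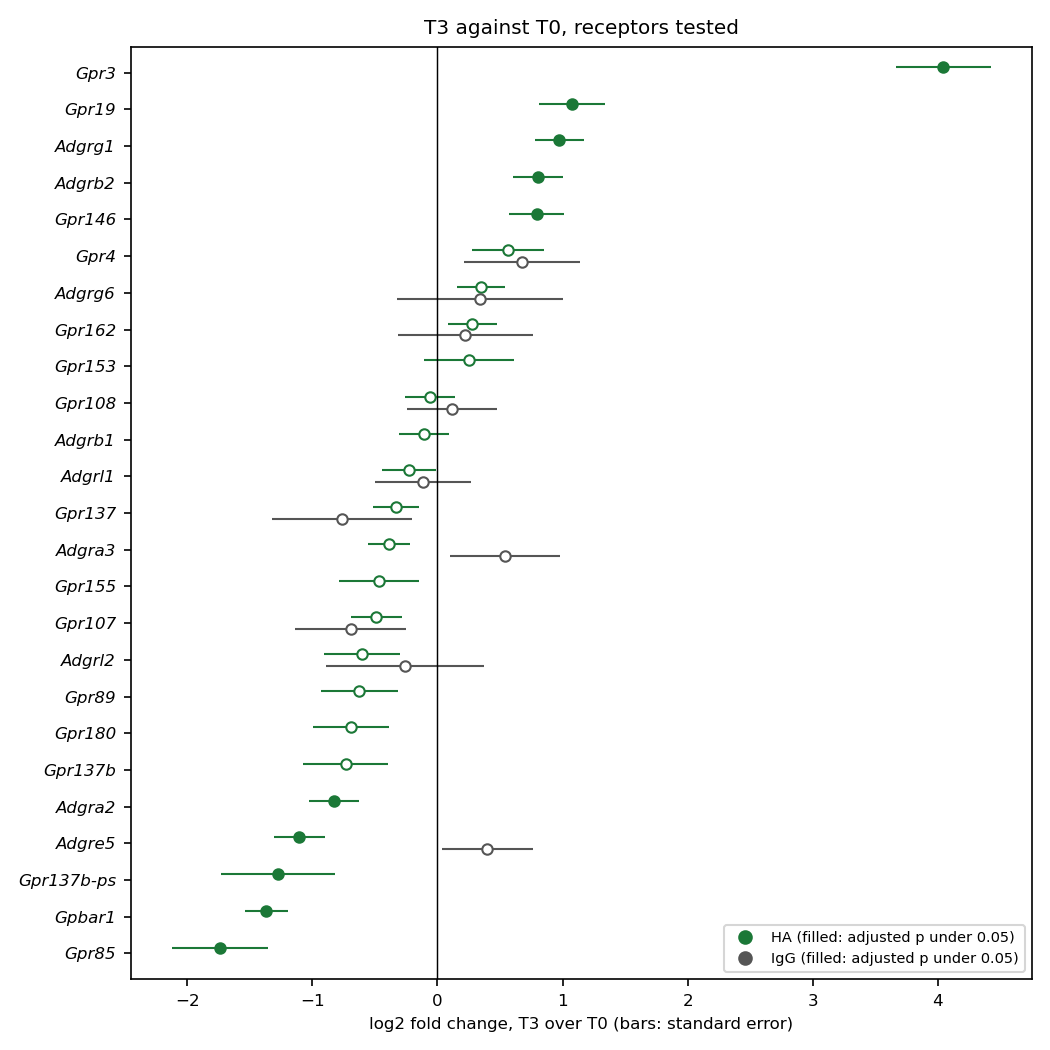
Log2 change from T0 to T3 for each receptor tested, in HA (green) and, where it could be tested, in IgG (grey), with bars of 1 standard error and filled points for an adjusted p under 0.05. Gpr3 stands alone at 4.04, 4 receptors lie near 1, and Gpr85, Gpbar1, Gpr137b-ps, Adgre5 and Adgra2 lie on the left. No grey point is filled.

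Of the 5 receptors that rose in HA all had a promoter in the RefSeq tables, and of the 5 that fell Gpbar1 and Gpr85 had one. The stretches just before the start of transcription are printed for a pair from each side, 5′ to 3′ on the strand of the gene (RefSeq, build GRCm38.p6, the build of mm10), to show the letters behind the motif counts that follow. Capitals mark matches, on either strand, to the half-site of the cAMP response element (TGACG) in Gpr3, to the EGR motif (GCGNGGGCG) in Adgrb2 and to the SOX core (ACAAAG) in Gpr85. Gpbar1 has no match to these, nor to the full cAMP response element (TGACGTCA) or AP-1 (TGANTCA). The stretches are chr4:133212537-133212786 (minus strand) for Gpr3, chr4:129984620-129984869 (plus) for Adgrb2, chr1:74278350-74278549 (plus) for Gpbar1 and chr6:13839943-13840192 (minus) for Gpr85.
Gpr3: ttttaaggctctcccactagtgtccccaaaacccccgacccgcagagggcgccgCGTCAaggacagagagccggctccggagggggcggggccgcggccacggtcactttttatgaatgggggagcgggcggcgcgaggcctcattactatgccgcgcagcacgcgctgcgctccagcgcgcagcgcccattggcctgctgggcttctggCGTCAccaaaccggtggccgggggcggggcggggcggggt
Adgrb2: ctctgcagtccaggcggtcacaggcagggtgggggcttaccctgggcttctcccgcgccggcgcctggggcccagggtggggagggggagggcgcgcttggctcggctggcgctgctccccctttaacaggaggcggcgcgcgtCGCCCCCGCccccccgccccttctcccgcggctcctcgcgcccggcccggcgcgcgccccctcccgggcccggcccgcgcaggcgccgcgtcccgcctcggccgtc
Gpbar1: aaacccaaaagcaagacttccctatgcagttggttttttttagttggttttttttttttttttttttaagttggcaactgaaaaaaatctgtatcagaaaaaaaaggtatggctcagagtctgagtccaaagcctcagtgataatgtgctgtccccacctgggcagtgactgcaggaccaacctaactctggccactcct
Gpr85: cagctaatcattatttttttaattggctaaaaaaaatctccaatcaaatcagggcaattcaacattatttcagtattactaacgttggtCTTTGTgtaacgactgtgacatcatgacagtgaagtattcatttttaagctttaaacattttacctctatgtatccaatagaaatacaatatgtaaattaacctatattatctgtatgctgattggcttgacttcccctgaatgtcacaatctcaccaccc

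The 5 receptors that rose have 11 promoters in the tables, with a GC content of 50.8 to 81.6%, of which those of Gpr3 (70.8%) and Adgrb2 (81.6%) are the highest. The promoters of Gpbar1 and Gpr85 have 44.8% and 32.0%. The median is 60% for the 11, 60.8% for all 46 receptor promoters and 52.4% for all 32851 promoters of 250 bases. The half-site TGACG is in 5 of the 11, from 4 receptors, in 14 of the 46 and in 17.8% of all promoters. The EGR motif is in 4 of the 11, from 3 receptors, in 7 of the 46 and in 4.7% of all promoters. Overlapping stretches of Gpr19 hold the same EGR site, so these matches are not all separate. The SOX core is in 1 of the 11, in 4 of the 46 and in 16.5% of all. AP-1 is in 1 of the 11, in 2 of the 46 and in 6.75% of all. The full cAMP response element is in none of the 46 and in 1.55% of all. The full element contains the half-site, so those matches are not separate. These are matches of letters, and no binding was measured.

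In the IgG pull-down 10 receptors had enough counts to be tested between T3 and T0, and none was called, where 5.46% of 5219 genes were called, 4.43% higher and 1.03% lower. No receptor had an unadjusted p under 0.05, DESeq2 called 0, and the adjusted p ran from 0.396 to 0.897. The median log2 change was 0.17 over the receptors and -0.02 over all genes. Adgre5, which fell in HA, had an IgG log2 change of 0.40 (SE 0.36), Adgra3 had 0.54 (SE 0.44) and Gpr4 had 0.68 (SE 0.46).

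An interaction of antibody and time, fitted over all 12 libraries, asked if a receptor changed differently in the 2 pull-downs. None of the 26 receptors tested was called, where 0.33% of 10314 genes were called, 0.301% higher and 0.0291% lower, and 3 receptors had an unadjusted p under 0.05. The median was -0.01 over the receptors and 0.17 over all genes. Adgre5 came nearest, with an interaction of -1.43 (SE 0.40, adjusted p = 0.142), and it passed once animals were blocked (0.0300) and in DESeq2's Wald test (adjusted p = 0.0133), which called 1 receptor. Adgra2 (-1.45, SE 0.66), Gpr155 (-1.86, SE 0.90), Adgra3 (-0.78, SE 0.43) and Gpbar1 (-1.14, SE 0.70) followed, with adjusted p of 0.455, 0.473, 0.547 and 0.607. Without the IgG T3 library of animal 4, which held 4.02 CPM of Adgra2 and 0 of Gpbar1, the interaction was -2.39 for Adgra2 (adjusted p = 0.0181) and -2.21 for Gpbar1 (adjusted p = 0.0321). For the remaining receptors that changed in HA, a difference from IgG was not shown.

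A further 19 receptors were never tested, with at most 15 counts in any library. They are 8 adhesion receptors, namely Adgra1, Adgrb3, Adgrf5, Adgrg2, Adgrg3, Adgrg5, Adgrl3 and Adgrl4, 5 receptors with a described ligand, among them Gpr17, Gpr39, Gpr132 and Gpr182, and 6 orphan receptors, among them Gpr52, Gpr61, Gpr157, Gpr160 and Gpr179. Gpr176, another orphan, was tested in the interaction alone, and its mean was at most 6.46 CPM in any group. Gpr17, a receptor of oligodendrocyte precursors, is described here because of its counts, after they were seen. It had 8, 9 and 13 counts in HA T0 and 0 in all 3 IgG T0 libraries. With the IgG group set to a floor of 3 counts, a value without an interval, Gpr17 was 3.11-fold higher in HA. In HA T3 it had 1, 0 and 0 counts, and the ratio of T3 to T0 in the pooled counts was 0.0605 (95% interval 0.00148 to 0.364, counting error only). Without a filter on low counts edgeR gave adjusted p of 0.0148 and 0.0126 for these comparisons. Because Gpr17 was chosen for these same counts, those values are no separate support. Gpr182, an atypical chemokine receptor of endothelium chosen in the same way, had 40 counts in HA T0 and 2 in IgG T0, a ratio of 6.23 (95% interval 1.61 to 53.2). The counting windows of Gpr17 and Gpr182 hold Lims2 and Zbtb39 on the opposite strand, so these few counts are uncertain.

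Lists of partners of these receptors were read from the same fits, and their shares called at T0 stand against the 30.3% of all genes given above. Of 9 G protein alpha subunits tested at T0, Gnai2 was higher in HA (0.79) and Gnao1, Gnai3 and Gnai1 were lower (-1.08, -1.51 and -1.49), with a median of -0.38 and 44.4% called. Of 9 regulators of G protein signalling, which shorten the signal of the alpha subunit, Rgs10 was higher (2.44) and Rgs1 and Rgs4 were lower (33.3% called). Of 6 adenylyl cyclases, the enzymes that make cAMP, Adcy1 and Adcy6 were higher (0.86 and 0.88) and 3 were lower (83.3% called). Among 5 phosphodiesterases that break down cAMP, Pde4c was higher (3.58) and 2 were lower (60% called), and none of 5 arrestins and receptor kinases was called. Of 13 beta and gamma subunits, 3 were higher, Gng7, Gnb5 and Gng12, and Gng4 was lower (30.8% called).

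Of 15 ligands of adhesion receptors tested at T0, 5 were higher in HA and 8 were lower, or 86.7% against 30.3% of all genes, with a median of -0.65. C1ql1, a secreted ligand of the BAI family member Adgrb3, was higher by 3.23 (SE 0.24, adjusted p = 3.83e-07) with 236 CPM in HA against 24.3 CPM in IgG. Adgrb3 itself was among the receptors never tested. The prion protein gene Prnp, whose product binds Adgrg6, was higher by 2.67 (SE 0.22, adjusted p = 1.03e-06) with 1878 against 289 CPM. Nrxn2 and Col3a1 were lower (-1.79 and -1.19). Receptors whose names fall outside the naming pattern were tested as a list of 9, of which 4 (44.4%) were higher in HA and none was lower: the retinoic acid-induced receptor Gprc5b (2.85), the cadherin-type adhesion receptor Celsr2 (1.62), Mrgprf (0.71) and Mrgpre (1.30). At T3 C1ql1 and Prnp were again higher in HA (2.64 and 2.22), as were Rgs10 (1.46), Pde4c (1.69) and Gprc5b (2.04). The T3 shares stand against 21.9% of all genes called. Of 9 ligands 3 were higher and 3 lower (66.7%), and of 7 regulators 1 was higher and 2 lower (42.9%). Of 9 alpha subunits, 5 cyclases and 5 arrestins and receptor kinases, 2 each were lower and none higher (22.2%, 40% and 40%). Of 12 beta and gamma subunits 1 was higher (8.33%). Of 3 phosphodiesterases 1 was higher (33.3%), and of 5 receptors outside the pattern 2 were (40%), with none lower.

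Between T0 and T3 in HA, Rgs16 went from 5.31 to 111 CPM, a log2 rise of 4.64 (SE 0.26, adjusted p = 2.97e-11), and Rgs9 rose by 1.45, while 3 of the 9 tested fell, among them Rgs10 and Rgs1 (-0.68 and -1.50). That was 55.6% of the list, against 33.8% of all genes called in this comparison. Pde4b rose by 3.00 (SE 0.22, adjusted p = 1.28e-09), from 32.4 to 218 CPM, and in IgG by 2.86 (SE 0.40, adjusted p = 4.91e-04), from 45.2 to 339 CPM. Of 6 phosphodiesterases tested in HA, 2 rose and none fell, which at 33.3% called was about the share of all genes. Of 6 adenylyl cyclases none rose, and Adcy9 and Adcy7 fell (-1.19 and -1.66), also 33.3%. Of 10 alpha subunits, Gna13 and Gnal rose (0.94 and 1.25) and none fell, a share of 20%. Of 12 ligands of adhesion receptors 50% were called, and 3 rose, among them Tgm2 (0.99), a ligand of Adgrg1, and 3 fell, among them Col3a1 (-1.43), another ligand of Adgrg1, and Tenm3 (-1.26), a ligand of the latrophilins. Of 8 receptors outside the naming pattern, the chemokine scavenger Ackr3 rose (1.76) and Mrgpre fell (-1.60), a share of 25%. Of 13 beta and gamma subunits 3 rose and 1 fell (30.8%), and of 5 arrestins and receptor kinases 1 rose (20%), both below the share of all genes.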

How the data were processed

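RNA was pulled down with anti-HA or IgG from the muscularis of 6 mice and sequenced as 12 libraries of a bulk MARS-seq type, with UMIs. The authors trimmed reads (cutadapt), aligned them to mm10 (STAR 2.4.2a), counted UMIs from 1000 bases before to 100 bases after the 3′ end of each gene (HTSeq) and normalised with DESeq2 1.26.0, tools per the submitters' processing notes and the study's methods. The deposited values used here are raw UMI counts per gene for 12975 genes, 189 of them without a count of 5 in any library. The series table and the 12 per-sample tables differed in 0 values. Strand use in counting is not given in the sources used here.

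CPM were computed from library totals. Each comparison was fitted on all genes with edgeR 4.0.16 (R 4.3.3, limma 3.58.1): TMM scaling, filterByExpr, the robust quasi-likelihood test, two-sided, with Benjamini-Hochberg adjustment over all genes tested and a threshold of 0.05. Only the 6 libraries of a comparison entered its fit, but all 12 entered that of the interaction. Intervals of pooled counts are exact and, like the floor of 3 counts, cover counting error only. HA and IgG libraries of 1 animal deviated together from their group means, by the titles' animal numbers (r = 0.25, 0.25 and 0.26 at T0 and 0.15, 0.14 and 0.074 at T3, over 10314 genes). The animal was therefore a block in an alternative fit. Other alternatives were other scalings, other filters, DESeq2 1.42.0, 1 fit of all libraries, and leaving out each library. The scripts were tested on simulated counts.

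Receptors were named with values if called in a comparison or if at a mean of at least 10 CPM in a group, and at most 4 genes with the smallest adjusted p per partner list. Members and lists were chosen with earlier results of these data known. Positions are from GENCODE M21 on mm10, which matched 44 of the 45 names, and another release may have been used for counting. In that annotation the counting windows of 2 receptors hold a gene on the same strand and those of 10 a gene on the opposite strand. Some items are not reported here.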

Additional observations from a re-analysis of the deposited data

Results flagged for a closer look

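The change of Adgre5 from T0 to T3 differed between HA and IgG in the fit with the animal as a block: the change in HA minus that in IgG was -1.43 on the log2 scale (adjusted p = 0.0300), with Adgre5 lower at T3 in HA and not called in IgG. Without the block the same quantity was -1.43 with an adjusted p of 0.142. Libraries of 3 were too few for a test of single outlying samples.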

How the results depend on the processing

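Of the receptor results called, 9 of 15 for HA against IgG at T0, 4 of 6 at T3 and 7 of 10 for T3 against T0 in HA passed the threshold in the same direction under each alternative run, and none reversed. The number of receptors lower in HA at T0, 1 in the report (Gpr85), was 0 with total counts as scaling, 0 without a filter, 0 with at least 5 counts in 1 library, 0 in DESeq2, 0 in 1 fit of all 12 libraries, and 0 to 0 when a library was left out. At T3 it was 1 without a filter (Adgrg2, with 1 count in HA and 4 in IgG) in place of 0. The number that fell from T0 to T3 in HA, 5, was 12 with total counts and 3 in the fit of all 12 libraries. For the interaction, 0 lower became 1 in DESeq2, 1 with the replicate block, and 0 to 2 when a library was left out, 2 being without the IgG T3 library of animal 4. Across the filter and scaling choices 14 to 17 receptors were higher at T0. DESeq2 called 12 higher there, with Gpr146 and Gpr137b lost. The replicate block gave 16 higher and 1 lower at T0. Time contrasts compare different animals that share only a number. Numbers 1 and 4 correlated at 0.15 and 0.012 in HA and 0.15 and 0.0099 in IgG. A block by that number was among the alternative runs. Number 2 at T0 and number 3 at T3 have no partner in it, so the blocked change rests on numbers 1 and 4. With that block Gpr137b-ps fell by 2.06 and Adgrl2 (adjusted p = 0.0145) and Gpr4 (0.0247) passed in HA. Without 1 library some receptors passed that had not: at T0 Gpr108 (IgG animal 2, 0.0229; HA animal 4, 0.0254), Gpr19 and Gpr137b-ps (IgG animal 1, 0.0152 and 0.0146), at T3 Gpr137 (IgG animal 1, 0.0174) and Gpr162 (IgG animal 4, 0.0212), and between times in HA Adgrl2 and Gpr4 (T3 animal 3, 0.0395 and 0.0463), Gpr107 and Gpr89 (T0 animal 4, 0.0409 and 0.0317). The cause of these shifts was not tested. The IgG T3 libraries were the shallowest, and 10 receptors had enough counts to be tested between times in IgG against 25 in HA.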
